A study of Mus musculus with 6 samples.

Results

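The 9 annexin genes *Anxa1*, *Anxa2*, *Anxa3*, *Anxa4*, *Anxa5*, *Anxa6*, *Anxa7*, *Anxa8* and *Anxa11* were followed in mouse chondrocytes before birth and in the adult. They were chosen by name, with earlier results of these data known, and all 9 were found among the 22032 genes of the RNA-seq table. The data comprise 3 embryonic and 3 adult samples of cartilage cells, for which the labels give an age of 16.5 weeks and of 2 months. The study's text places the embryonic sample at an embryonic day of that number, which is the stage meant here. Adult cells came from male B6 mice and were sorted for BMPR1B, a bone morphogenetic protein receptor, and against ALP (alkaline phosphatase), CD31, CD45 and Ter119, and embryonic cells were sorted as lineage-negative, ALP- and BMPR1B+. The labels name no transgene and no treatment. The strain and sex of the embryos and the number of animals behind each sample are not given in the sources used here.

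Annexins are cytosolic proteins that bind acidic phospholipids, phosphatidylserine above all, when calcium is present. A core built of repeated domains carries the calcium and membrane binding, and a short or long amino-terminal tail, different in each member, carries the sites for partners such as the small S100 proteins. In cartilage the family is best known from matrix vesicles, the membrane particles in which mineral first forms in the growth plate, where *Anxa2*, *Anxa5* and *Anxa6* products are abundant. In other cells annexins organise membrane domains, help to seal torn plasma membrane and, in the case of annexin A1, dampen inflammation.

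The start regions of *Anxa8*, *Anxa1* and *Anxa2* are shown because *Anxa8* led the family in the adult samples, *Anxa2* led it before birth, and *Anxa1* stood high in both with the opposite change to *Anxa2*. Each runs from 250 bases before to 50 bases after a RefSeq transcription start on GRCm38.p6, read 5′ to 3′ on the gene's own strand. Capitals mark matches to 4 motifs, searched on both strands. These were the TATA box with the letters TATAAA, the box whose letters are CCAAT, the GC box with the letters GGGCGG, and the AP-1 site with the letters TGANTCA. The regions lie at chr14:34085729-34086028 on the plus strand for *Anxa8*, at chr19:20390622-20390921 on the minus strand for *Anxa1* and at chr9:69453433-69453732 on the plus strand for *Anxa2*.
Anxa8: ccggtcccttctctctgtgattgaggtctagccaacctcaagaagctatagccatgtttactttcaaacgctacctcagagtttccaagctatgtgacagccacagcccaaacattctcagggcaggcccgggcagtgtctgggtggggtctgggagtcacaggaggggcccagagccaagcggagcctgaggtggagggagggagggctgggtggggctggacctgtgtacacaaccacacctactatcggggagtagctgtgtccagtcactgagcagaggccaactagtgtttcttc
Anxa1: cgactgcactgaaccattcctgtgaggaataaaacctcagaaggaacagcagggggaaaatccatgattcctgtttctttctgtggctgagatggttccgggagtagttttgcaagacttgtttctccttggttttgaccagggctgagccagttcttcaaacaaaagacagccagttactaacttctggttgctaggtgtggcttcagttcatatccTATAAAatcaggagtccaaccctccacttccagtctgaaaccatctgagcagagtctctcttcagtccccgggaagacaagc
Anxa2: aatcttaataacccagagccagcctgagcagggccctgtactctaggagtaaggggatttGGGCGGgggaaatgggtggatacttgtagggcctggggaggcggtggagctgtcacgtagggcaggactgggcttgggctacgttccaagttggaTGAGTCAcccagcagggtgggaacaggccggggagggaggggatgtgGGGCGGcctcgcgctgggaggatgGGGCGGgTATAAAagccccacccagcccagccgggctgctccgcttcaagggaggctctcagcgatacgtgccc
The *Anxa8* region held none of the 4 motifs. In *Anxa1* a single TATA box began at position -32 from the start, and in *Anxa2* a TATA box began at -17 and an AP-1 site at -95, with 3 GC boxes besides. A TATA box stood in 13.6% of all 32851 regions of this length, a CCAAT box in 37.4%, a GC box in 35.7% and an AP-1 site in 7.81%. Regions were matched for 7 of the 9 annexins, 9 regions in all. The annexins are counted by gene, with a match in any region, whereas the shares above are by region. Of these 7 genes 2 held a TATA box, 1 an AP-1 site and 0 a CCAAT box. A GC box stood in 4 of them (*Anxa2*, *Anxa4*, *Anxa7* and *Anxa11*), in 5 regions. The *Anxa8* region contained 5 CpG dinucleotides, *Anxa1* 3, *Anxa2* 13 and *Anxa11* 25, against a median of 7 over all regions. The motifs and CpG counts thus differ between annexins that rose together, and a match of letters is no evidence that a factor binds there.

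Levels are given as TPM, transcript counts scaled to a common total and already divided by transcript length, so that genes can be set side by side. The linear values add up to the same total in each sample and carry no read depth. Chondrocyte identity was checked with 10 cartilage markers, which summed to 23694 to 24965 TPM in the embryonic and 34720.0 to 36893 TPM in the adult samples. The adult sum was mostly *Prg4*, which encodes the joint lubricant lubricin. Without it the other 9 markers summed to 23500.1 to 24802 TPM before birth and 9127 to 12162 TPM in the adult, and of all 10 markers 3 were higher and 6 lower in the adult. *Matn3*, a cartilage matrilin, stood at only 1.11 to 3.65 TPM in the adult samples. Markers of other cells moved with the stage. The 7 tendon and fibroblast markers summed to 5452 to 5976 TPM before birth and 762 to 1088 TPM in the adult, the 6 osteoblast markers to 564 to 761 and 2726 to 4815 TPM, and the 8 leukocyte markers to 6.49 to 19.8 and 474 to 537 TPM. Most of the osteoblast sum was *Spp1*, without which it was 11.5 to 46.4 and 252 to 439.7 TPM, and 4 of these markers were higher and 1, *Dmp1*, lower in the adult. Most of the adult leukocyte sum was *Cd14*, without which it was 19.0 to 181 TPM. Among leukocyte genes, *S100a8* and *S100a9* of neutrophils were listed at 0 in all embryonic samples and in adult replicate 2, while *Cd3e* was listed at 0 throughout. The erythroid markers reached 257 TPM in embryonic replicate 1 and at most 47.5 TPM elsewhere. Summed markers of muscle, endothelium and skin stayed at or under 32.3 TPM in every sample, and the skin keratins *Krt5* and *Krt14* were listed at 0 in all 6. In such bulk samples fewer cells of a type and less RNA per cell cannot be told apart.

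Adult and embryonic samples were compared to ask how the family differs between the stages. Of the 9 annexins 6 rose in the adult (*Anxa8*, *Anxa4*, *Anxa11*, *Anxa7*, *Anxa3* and *Anxa1*), 2 fell (*Anxa2* and *Anxa6*), and *Anxa5* did not pass the test. The test was limma on log2(TPM + 1) with Benjamini-Hochberg adjustment over all 13125 genes that averaged 1 TPM or more, and a gene passed at an adjusted p under 0.05. Of all genes tested, 45.3% passed, 23.9% higher and 21.4% lower in the adult. For 8 of the 9 annexins the embryonic and adult ranges did not overlap, as for 56.5% of all tested genes. The annexins had a median log2 fold change of 1.17, and the tested genes as a whole one of 0.16. No annexin value was listed at 0, and the lowest was 34.9 TPM.

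**Figure D1:**
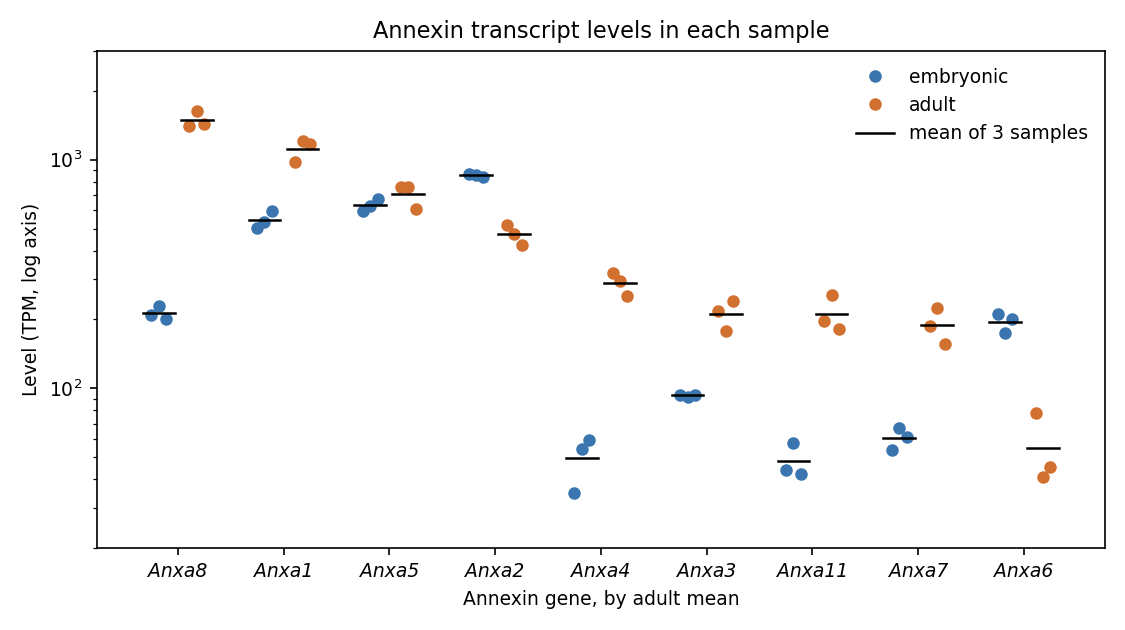
TPM (log axis) of each annexin gene in the 3 embryonic (blue) and 3 adult (orange) samples, with a black bar at the mean of 3, genes ordered by adult mean. *Anxa8* leads in the adult at 1401 to 1628 TPM, *Anxa2* leads in the embryonic samples at 843 to 864 TPM, and only *Anxa5* has overlapping stages.

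**Figure D2:**
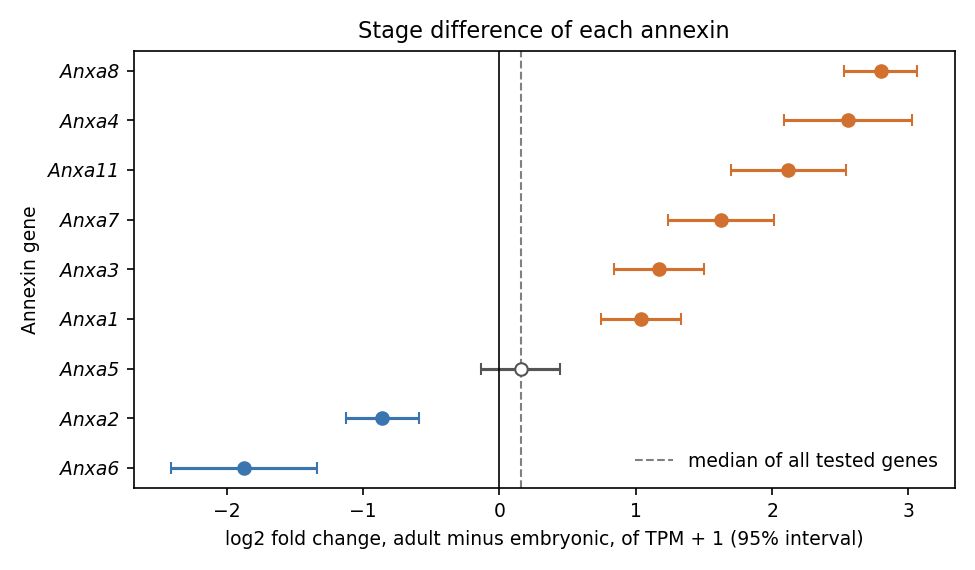
log2 fold change of TPM + 1, adult minus embryonic, for each annexin with its 95% interval from limma. Filled points passed the test, the open point (*Anxa5*) did not, and the dashed line is the median of all tested genes at 0.16.

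*Anxa8* encodes an annexin of the plasma membrane and late endosomes. The gene lies on chromosome 14 of GRCm38 from 34085981 to 34100571 on the plus strand, with 12 exons in its longest coding transcript. Embryonic samples held 209, 229 and 201 TPM, and adult samples 1401, 1628 and 1433 TPM. Every adult value was far above every embryonic one, and both stages were tight, with SDs of 0.10 and 0.12 on the log2 scale (n = 3 each). Mean TPM was 6.99 times higher in the adult, with a 95% interval of 2.53 to 3.07 around the log2 fold change of 2.80 (limma adjusted p = 9.8e-07), the highest of the 9. By mean level *Anxa8* stood at rank 823 of all genes in the embryonic samples and at rank 58 in the adult. It overlaps *A630023A22Rik* on the opposite strand, which was listed at 0 in 5 of the 6 samples and at 0.079 TPM in the sixth.

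*Anxa1* and *Anxa2* encode the annexins most closely tied to S100 proteins, annexin A1 with S100A11 and annexin A2 with S100A10, with which it forms a tetramer at the cell surface that binds plasminogen and its activator. *Anxa1* lies on chromosome 19 from 20373428 to 20390944 on the minus strand. Its transcript was at 504, 533 and 595 TPM in the embryonic and 982, 1203 and 1173 TPM in the adult samples, so that the stages did not overlap. The mean was 2.06 times higher in the adult (log2 fold change 1.04 with a standard error of 0.129, limma adjusted p = 3.2e-04). Leukocyte markers were also higher in the adult. *Cd14* of monocytes and macrophages was at 357, 458 and 364 TPM in the adult samples and at most 6.89 TPM before birth. Its highest adult value was in replicate 2, as for *Anxa1*. Summed, the other 7 leukocyte markers were lowest in that replicate, at 181, 19.0 and 110 TPM in adult replicates 1, 2 and 3. The part of such cells in the result was not tested. Without adult replicate 2 the log2 fold change of *Anxa1* was 0.98.

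*Anxa2*, on chromosome 9 from 69453620 to 69491795 on the plus strand, went the other way. It was at 864, 858 and 843 TPM in the embryonic samples, where it was the highest annexin in all 3, and in the adult samples at 520.1, 473 and 425 TPM, where *Anxa8*, *Anxa1* and *Anxa5* all stood above it. The embryonic values lay within an SD of 0.02 on the log2 scale. On the log2 scale it fell by 0.86 with a standard error of 0.117 (limma adjusted p = 5.2e-04), a mean 1.81 times higher before birth. The ratio of *Anxa1* to *Anxa2* TPM was 0.58, 0.62 and 0.71 in the embryonic and 1.89, 2.54 and 2.76 in the adult samples, and that of *Anxa8* to *Anxa2* went from 0.25 ± 0.02 to 3.17 ± 0.41 (SD, n = 3). The order of the 3 genes was thus turned round between the stages in every sample.

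*Anxa5* and *Anxa6* encode, with *Anxa2*, the annexins named most often in matrix vesicles. Annexin A5 forms two-dimensional lattices on phosphatidylserine and serves as the standard probe for dying cells, and annexin A6 has a doubled core. *Anxa5* lies on chromosome 3 from 36448923 to 36475894 on the minus strand and was at 597, 628 and 673 TPM in the embryonic and 757, 757 and 611 TPM in the adult samples. Adult replicate 3 lay among the embryonic values and the other adult samples above them. The log2 fold change was 0.16 with a 95% interval of -0.13 to 0.45 (limma adjusted p = 0.343), as large as the median of all tested genes. A change of 1 on the log2 scale in either direction lies outside this interval, and over the alternatives the adjusted p lay between 0.065 and 0.957.

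*Anxa6*, on chromosome 11 from 54979108 to 55033445 on the minus strand, has 26 exons in its longest coding transcript, against 12 to 15 in the other 8. It fell from 211, 175 and 199.9 TPM to 78.0, 40.8 and 45.0 TPM. All adult values were below all embryonic ones, but adult replicate 1 stood apart from the other two, and the adult SD of 0.50 on the log2 scale was the widest of any annexin in either stage. The log2 fold change was -1.87 with a standard error of 0.235 (limma adjusted p = 3.4e-04) and lay between -2.16 and -1.70 when each sample was left out. The mean was 3.57 times higher before birth, and *Anxa6* went from rank 917 to rank 3554 of all genes. The ratio of *Anxa6* to *Anxa5* TPM was 0.31 ± 0.04 in the embryonic and 0.08 ± 0.02 in the adult samples (SD, n = 3), although both belong to the vesicle annexins. Like *Anxa2* and *Anxa6*, 4 of the 7 tendon and fibroblast markers were lower in the adult, and 1, *Thbs4*, was higher. Of the 10 cartilage markers 6 were lower and 3 higher, and of all tested genes 21.4% were lower. *Tnmd*, which marks tendon cells, went from 108 to 262 TPM down to at most 2.11 TPM, while *Mkx* and *Pdgfra* did not pass. The part of tendon cells and fibroblasts in the result was not tested.

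*Anxa4* and *Anxa3* encode annexins studied mostly in epithelia and, for annexin A3, in neutrophil granules. *Anxa4* lies on chromosome 6 from 86736840 to 86793584 on the minus strand. Embryonic samples held 34.9, 54.2 and 59.1 TPM, and adult samples 319, 295 and 254 TPM. The ranges lay far apart, and embryonic replicate 1 was the lowest. It rose by 2.56 on the log2 scale with a standard error of 0.206 (limma adjusted p = 3.1e-05), with a mean 5.86 times higher in the adult. Without embryonic replicate 1 it was 2.33, the lowest of the alternatives.

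*Anxa3*, on chromosome 5 from 96793339 to 96845966 on the plus strand, was at 93.7, 91.8 and 93.3 TPM before birth and at 217, 178 and 241 TPM in the adult. The embryonic samples were nearly equal, with an SD of 0.02 on the log2 scale, and the adult samples spread more widely above them. The rise was 1.17 on the log2 scale with a standard error of 0.144 (limma adjusted p = 3.0e-04). Adult replicate 2, the one with *S100a8* and *S100a9* listed at 0, had the lowest adult *Anxa3*, and without it the log2 fold change was 1.29. The leukocyte marker *Cd14* was instead highest in that replicate, at 458 TPM against 357 and 364 TPM. The part of neutrophils in the result was not tested.

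*Anxa7* and *Anxa11* encode the annexins with long amino-terminal tails. Annexin A7 binds sorcin (*Sri*), and annexin A11 binds S100A6 and the calcium sensor encoded by *Pdcd6*. Both genes lie on chromosome 14, like *Anxa8*, *Anxa7* from 20455260 to 20480133 on the minus strand and *Anxa11* from 25842156 to 25886804 on the plus strand. *Anxa7* was at 53.5, 66.7 and 61.0 TPM in the embryonic and 188, 225 and 156 TPM in the adult samples, without overlap, and rose by 1.62 on the log2 scale with a standard error of 0.171 (limma adjusted p = 1.3e-04). *Anxa11* went from 43.9, 57.3 and 42.2 TPM to 196, 257 and 181 TPM, again without overlap. It rose by 2.12 on the log2 scale with a standard error of 0.185 (limma adjusted p = 4.8e-05), a mean 4.42 times higher. In both genes replicate 2 was the highest of its stage, and the adult samples came in the same order. The value of *Anxa11* is less certain than the others, because 28.9% of the 50-base words of its longest coding transcript, a word being as long as a read, also occur in the antisense gene *Anxa11os* or in *Gm2260* and *Gm2274*. None of these sharing genes was found by symbol in the RNA-seq table, so their own levels cannot be given. For *Anxa4* the share of such words was 1.46%, and for the other 7 annexins it was 0.

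Of the remaining family members, *Anxa9* and *Anxa10* averaged less than 1 TPM and so stayed out of the test. *Anxa9* was at 0, 0.85 and 1.52 TPM in the embryonic and 0.28, 1.35 and 0.20 TPM in the adult samples, and *Anxa10* was listed at 0 in all but embryonic replicate 3, at 0.35 TPM. *Anxa13* was looked for by symbol and was not found.

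Summed over the 9 genes, annexin transcripts came to 2611, 2692 and 2767 TPM in the embryonic and 4657, 5056 and 4518 TPM in the adult samples. This is 0.269% ± 0.008 and 0.474% ± 0.028 of all transcripts (SD, n = 3), a ratio of 1.76, given here without a test because the genes were chosen. The ratio was 1.59 when samples were scaled by the median of ratios and 1.89 when the 20 highest genes were left out. The make-up of the pool shifted with its size. *Anxa2* held 31.8% ± 1.32 of the sum before birth and 9.98% ± 1.03 in the adult, while *Anxa8* went from 7.92% ± 0.62 to 31.3% ± 1.11 (SD, n = 3). *Anxa1* held 20.2% ± 1.16 and 23.6% ± 2.44, and *Anxa5* went from 23.5% ± 0.73 to 14.9% ± 1.36 of the sum although its own level did not pass the test.

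**Figure D3:**
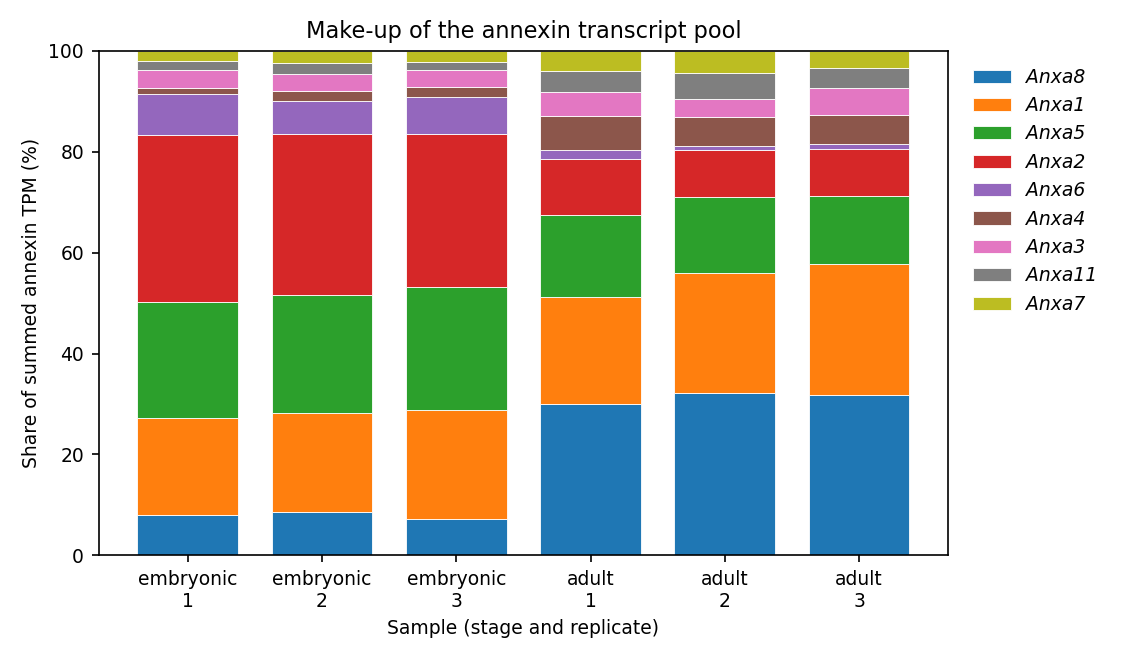
Share of each annexin in the summed TPM of the 9 genes (percent), 1 bar per sample. The *Anxa2* segment shrinks from 31.8% to 9.98% on average and the *Anxa8* segment grows from 7.92% to 31.3%, alike in the 3 samples of each stage.

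Ordered by mean level, the embryonic samples ran *Anxa2*, *Anxa5*, *Anxa1*, *Anxa8*, *Anxa6*, *Anxa3*, *Anxa7*, *Anxa4* and *Anxa11*. Neighbours did not overlap except *Anxa8* with *Anxa6*, *Anxa7* with *Anxa4*, and *Anxa4* with *Anxa11*. The adult order was *Anxa8*, *Anxa1*, *Anxa5*, *Anxa2*, *Anxa4*, *Anxa3*, *Anxa11*, *Anxa7* and *Anxa6*, in which *Anxa3* overlapped with *Anxa11* and *Anxa11* with *Anxa7*. The first 4 places of the adult order were the same in all 3 adult samples, and *Anxa2*, *Anxa5* and *Anxa1* led in all 3 embryonic samples. The 3 leading genes of a sample held up to 76.3% of its annexin sum before birth and 67.4% to 71.2% in the adult.

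The 4 S100 genes whose products bind annexins all passed the test, 2 in each direction, where 45.3% of all tested genes passed. The same background share holds for the lists that follow, with 23.9% of all tested genes higher and 21.4% lower. *S100a10*, the partner of annexin A2, was at 1315, 1457 and 1382 TPM in the embryonic and 510.4, 557 and 866 TPM in the adult samples (log2 fold change -1.14, limma adjusted p = 0.0016). It fell with *Anxa2*, and their ratio was 1.62 ± 0.09 before birth and 1.40 ± 0.56 in the adult (SD, n = 3), with the 3 adult values of 0.98, 1.18 and 2.04 lying on both sides of the embryonic ones. *S100a11*, the partner of annexin A1, went from 1159.9, 1308 and 1076 TPM to 628, 371 and 631 TPM (log2 fold change -1.16, limma adjusted p = 0.00224). *S100a11* therefore fell while *Anxa1* rose, and their ratio went from 2.19 ± 0.34 to 0.50 ± 0.17 (SD, n = 3). *S100a6* rose by 2.24 on the log2 scale (limma adjusted p = 9.9e-06), and its ratio to *Anxa11* was 11.2 ± 1.44 and 12.2 ± 2.77 (SD, n = 3). *S100a4*, a further ligand of annexin A2, rose by 4.54, from 13.3, 13.0 and 22.8 TPM to 277, 438 and 487 TPM (limma adjusted p = 6.0e-06).

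The penta-EF-hand proteins are calcium sensors, of which those encoded by *Sri* and *Pdcd6* bind annexins with long tails. Of 3 tested, 2 rose (66.7%, against 45.3% of all genes called) and 0 fell, *Sri* by 1.33 on the log2 scale and *Pef1* by 1.59 (limma adjusted p = 8.9e-04 and 6.9e-04). *Sri* went from 41.0, 25.4 and 31.3 TPM to 77.2, 86.5 and 82.3 TPM, and its ratio to *Anxa7* was 0.55 ± 0.20 before birth and 0.44 ± 0.08 in the adult (SD, n = 3). *Pdcd6* did not pass (log2 fold change -0.33, limma adjusted p = 0.26). Genes of membrane repair, in which annexins seal wounds together with dysferlin-like proteins and calpains, passed in 23.1% of cases, against 45.3% of all genes. Of 13 tested, 2 rose and 1 fell. *Capns1*, the small subunit of calpains, went from 367, 409 and 371 TPM to 1324, 2055 and 1267 TPM (log2 fold change 1.98), and *Cav1*, encoding caveolin-1, rose by 0.64, while *Cavin1*, its coat partner, fell by 0.71 on the log2 scale. *Dysf* and *Myof*, the dysferlin and myoferlin genes, differed by 0.42 and 0.19 without passing (limma adjusted p = 0.416 and 0.423).

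Among 9 tested genes for other proteins that bind phospholipids through calcium, such as copines, 6 rose and 0 fell, a share of 66.7% against 45.3% of all genes. *Cpne2* rose by 3.45 on the log2 scale, from 4.53, 9.62 and 3.34 TPM to 75.7, 68.7 and 61.4 TPM, *Cpne1* by 1.79 and *Esyt2*, a lipid transfer protein at membrane contacts, by 1.06. Genes that expose or recognise phosphatidylserine, the lipid annexins bind, were divided, with 4 of 14 higher and 5 lower, or 64.3% called against 45.3% of all genes. *Mfge8*, encoding lactadherin, a secreted phosphatidylserine binder, was at 178, 192 and 199 TPM in the embryonic and 1555, 1454 and 1223 TPM in the adult samples (log2 fold change 2.88, limma adjusted p = 1.1e-06). *Plscr4* rose by 2.23 and *Xkr8*, a scramblase, by 2.09, whereas *Plscr1* fell by 2.65, the lipid flippase gene *Atp8a1* by 1.83 and *Axl*, a receptor that reads the lipid through a bridging protein, by 1.12.

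Annexin A1 acts on formyl peptide receptors and curbs phospholipase A2, and its gene responds to glucocorticoids. The receptor genes *Fpr2* and *Fpr3* were listed at 0 in all 6 samples and *Fpr1* in 5, with 1.08 TPM in adult replicate 2. Of the 5 tested genes of this list, 3 rose and 1 fell, against 45.3% called of all genes. *Ptgs1* rose by 2.37 on the log2 scale, *Pla2g4a*, encoding cytosolic phospholipase A2, by 1.26 and *Pla2g12a* by 1.13, while *Ptgs2*, the inducible cyclooxygenase, fell by 1.25 (limma adjusted p = 4.1e-04). Of 8 glucocorticoid response genes, 4 rose and 0 fell, a share called that is near the 45.3% of all genes. *Sgk1* rose by 1.40, *Dusp1* by 1.04 and *Tsc22d3*, encoding the mediator GILZ, by 0.82, whereas *Fkbp5*, a receptor cochaperone, was 0.28 lower without passing (limma adjusted p = 0.336).

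The plasminogen system, which annexin A2 with S100A10 gathers at the cell surface, had 2 genes higher and 1 lower of 6 tested, again near the 45.3% called of all genes. *Plau*, encoding urokinase, fell by 2.20 on the log2 scale, from 84.0, 56.8 and 70.5 TPM to 17.1, 9.52 and 17.9 TPM (limma adjusted p = 3.4e-04). The inhibitor gene *Serpine2* rose by 3.81, from 168, 153 and 177 TPM to 2444, 2375 and 2200.3 TPM (limma adjusted p = 1.4e-07). The receptor gene *Plaur* differed by -0.26 (limma adjusted p = 0.101), and *Plg* itself was listed at 0 in every sample. The activator gene *Plau* was thus lower and the inhibitor gene *Serpine2* higher in the adult.

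Of the 11 genes of matrix vesicles and mineral, 10 were higher and 0 lower in the adult (90.9% called, against 45.3% of all genes, of which 23.9% were higher). The leading ones were *Ibsp* (log2 fold change 5.58), *Col10a1* (5.29) and *Mmp13* (4.28). *Ibsp*, encoding bone sialoprotein, spread widely before birth, at 0.148, 29.6 and 5.07 TPM, against 316, 235 and 308 TPM in the adult samples. *Slc20a1*, a phosphate importer, went from 263, 268 and 262 TPM to 1052, 1539 and 1471 TPM, and *Phospho1*, a phosphatase of the vesicle interior, rose by 2.17. Not all of these genes favour mineral. *Ank* and *Enpp1*, which raise the mineral inhibitor pyrophosphate, rose by 1.84 and 0.66. *Alpl*, whose product was selected against in the sort, rose by 1.13, from 15.4, 14.4 and 17.9 TPM. Of this list *Spp1* and *Ibsp* were also among the osteoblast markers, and the part of such cells was not tested. Beside this list, of the 3 vesicle annexins *Anxa2* and *Anxa6* fell and *Anxa5* did not pass.

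**Figure D4:**
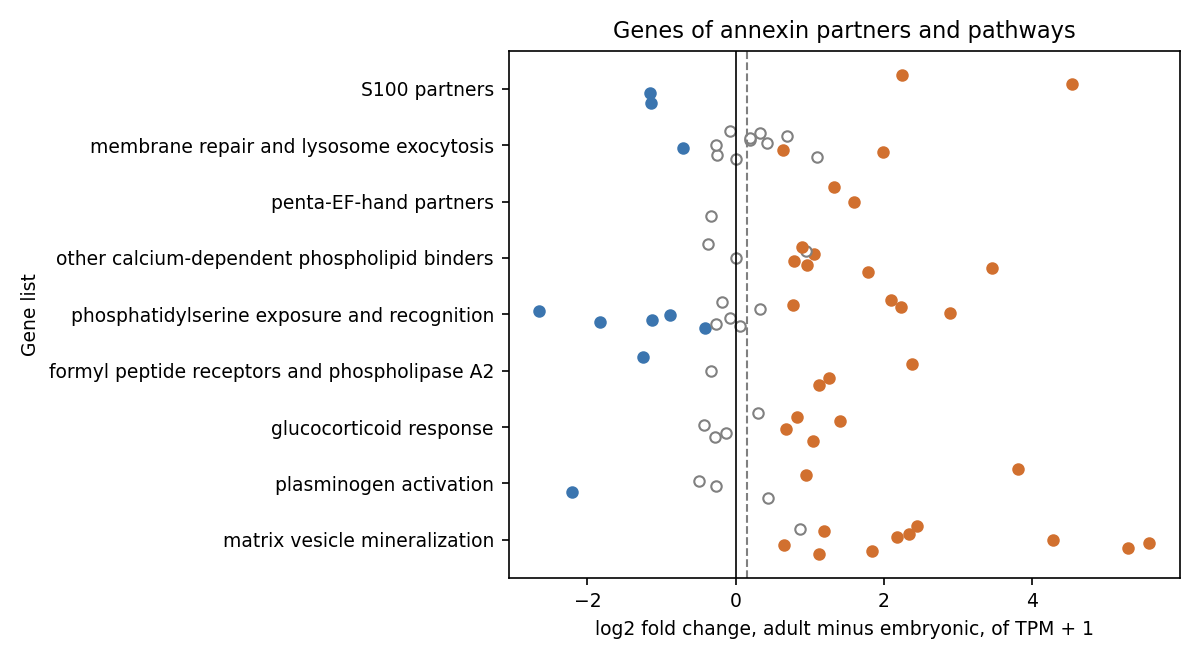
log2 fold change of TPM + 1, adult minus embryonic, of 73 tested genes in 9 lists of annexin partners and pathways, 1 point per gene. Filled points passed the test (orange higher, blue lower in the adult), open points did not, and the dashed line is the median of all tested genes; 35 genes were higher and 10 lower.

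Over these lists together, 35 of 73 tested genes rose and 10 fell, or 61.6% called against 45.3% of all tested genes. Their median on the log2 scale was 0.68, against 0.16. The lists were chosen for their ties to annexins with earlier results of these data known, so that the shares describe the lists and no more. Samples of a stage are named as biological replicates by the study. The p-values set the stage difference against the spread among 3 such samples per stage, which limma moderates with that of all tested genes. Stage, strain, sex and tissue make-up may differ together between the groups and cannot be told apart.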

How the data were processed

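RNA-seq was measured in 3 embryonic and 3 adult mouse cartilage samples, grouped by their titles. The authors mapped reads to GRCm38 with RefSeq annotations, estimated levels with RSEM (version not given in the sources used here) and deposited them as log2(TPM + 1), a log2 scale with a pseudocount of 1. The labels name a Kapa mRNA-Seq kit, and the methods a Nugen kit with random and poly(T) primers that does not mark strand. TPM keeps no read depth, so the precision rests on 3 samples per stage.

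The 9 members and the gene lists were chosen with earlier results of these data known. All genes averaging 1 TPM or more were fitted with limma 3.58.1 in R 4.3.3 (eBayes with trend, stage as the only term, Benjamini-Hochberg adjustment), after a check on simulated data. EBSeq, named in the methods, was not used here. Symbols and positions came from GENCODE M21 (21902 of 22032 identifiers matched, *Ankh* as *Ank*), start regions from RefSeq GRCm38.p6. Besides the members, the genes named are other annexins, the annexin-binding ones, for each member the gene with the highest Pearson r and, in each list, up to 3 per direction with the largest change past the threshold; others (the marker genes, *Dysf*, *Myof*, *Fkbp5*, *Plaur*, *Slc20a1*, *Phospho1*, *Ank*, *Enpp1*, *Alpl*, the *Fpr* genes and *Plg*) were picked after their values were seen. One gene that this rule names is not reported here. The alternatives tried were a smaller pseudocount (0.1), a filter at 5 TPM or none, 3 other scalings, eBayes without trend or robust, a replicate block, a threshold of 0.01 and each sample left out.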

Additional observations from a re-analysis of the deposited data

How the results depend on the processing

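Under all 16 alternatives 6 annexins were higher and 2 lower in the adult, and each of the 9 genes kept its direction and its side of the threshold. The log2 fold change of *Anxa8* ran from 2.65 to 3.00, that of *Anxa2* from -1.004 (median of ratios) to -0.65 (quantile normalization), and that of *Anxa5* from 0.01 (median of ratios) to 0.36 (quantile normalization). The highest adjusted p among the 8 called genes was 0.00958, for *Anxa2*. Scaling by the median of ratios moved the median change over the tested genes from 0.16 to 0.03 and the summed annexin ratio from 1.76 to 1.59. Leaving out the 20 highest genes moved them to 0.25 and 1.89. With each sample left out the ratio was 1.71 to 1.81. The 45 called partner and pathway genes became 36 to 45. The count over all genes, 5949, was 3718 at a threshold of 0.01, which is stricter by construction, and 4604 to 5617 with each sample left out. Samples share only a replicate number. Deviations of same-numbered samples correlated at -0.009, -0.017 and -0.022 across genes, and with the replicate block 6 annexins were higher, 2 lower, and 5430 genes were called in all. TPM carries no depth, so counting error cannot be given for any value.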

Other observations

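Adult replicate 1 lay nearest to the embryonic samples in both annexins that fell. *Anxa6* was at 78.0 TPM there against 40.8 and 45.0 TPM in the other adult samples, and *Anxa2* at 520.1 against 473 and 425 TPM. *Col2a1*, the main cartilage collagen gene, which was also lower in the adult, stood at 7084 TPM in that replicate against 3166 and 3869 TPM. *Col3a1*, likewise lower in the adult, was farthest from the embryonic samples there, at 148 against 312 and 395 TPM. *Bmpr1b*, the gene of the sort marker, was also farthest from the embryonic samples in adult replicate 1. It was at 4.51 TPM there, at 18.5 and 13.4 TPM in the other adult samples, and at 20.3, 19.0 and 16.4 TPM before birth. No test was made within the 3 adult samples.

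Of 13124 other tested genes, the one whose log2 level ran most nearly parallel to an annexin over the 6 samples was *Trp53inp1* for *Anxa8*, *Pcolce2* for *Anxa1*, *Prss35* for *Anxa2*, *Gm12669* for *Anxa3*, *Aen* for *Anxa4*, *Armcx2* for *Anxa6*, *Tnfrsf21* for *Anxa7* and *Icmt* for *Anxa11*, all with a Pearson r over 0.99. For *Anxa5* it was *Cyp4f13*, with an r of 0.989. These are descriptions over 6 samples that fall into 2 stages, so that any gene differing steeply by stage correlates with any other. Between 639 and 1190 genes reached an r over 0.95 with each annexin that passed the stage test, and 35 with *Anxa5*.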
